A study of Mus musculus with 5 samples.

Results

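The Hox genes encode homeodomain transcription factors that give cells their position along the head-to-tail axis of the embryo. In the mouse they lie in 4 clusters, Hoxa to Hoxd, and are numbered 1 to 13 by their place in a cluster, so that genes of the same number in different clusters (paralogs) are close relatives. All gene symbols of the form Hox, cluster letter, number were taken from the deposited tables, which gave 39 of 24421 genes: 11 in Hoxa, 10 in Hoxb, 9 in Hoxc, and 9 in Hoxd. The family was chosen by its higher levels in V6.5 cells expressing shGldc than in V6.5 cells expressing the NTC, so the values of that comparison are a description. The levels in MEFs, iPSCs, and untreated V6.5 cells were not used to choose it.

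RNA-seq was performed on 5 libraries, 1 per group, so no value has a replicate error and no test was possible. MEFs are mouse embryonic fibroblasts, made from E13.5 CF-1 embryos and grown in serum. The iPSCs were an established induced pluripotent line, and V6.5 is a line of mouse embryonic stem cells (mESCs); both were grown with leukaemia inhibitory factor, and the labels give a serum replacement medium without feeder cells. The NTC library came from V6.5 cells carrying a non-targeting control shRNA. The shGldc library came from V6.5 cells carrying an shRNA against Gldc, the glycine decarboxylase of the glycine cleavage system. The paper describes stable shRNA expression and names a pLKO vector for the Gldc shRNA, where the labels name a transfection. Neither the number of clones nor the time after delivery is given. Levels are in FPKM, fragments per kilobase of transcript and per 1000000 mapped fragments, a unit that corrects for length.

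Anterior Hox genes (low numbers) are switched on before posterior ones in the embryo, in the order in which they lie on the chromosome. In mESCs the clusters are held silent by Polycomb complexes, which place repressive marks on histones. Retinoic acid, through its receptors, and the Cdx factors, downstream of Wnt and Fgf signals, are known to open the clusters from their anterior end.

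The 4 clusters occupy compact stretches of the mouse genome (GRCm38, the mm10 build). Hoxa spans 105.3 kb of chromosome 6 (52155590 to 52260880) and Hoxd 96.8 kb of chromosome 2 (74668310 to 74765142). Hoxb spans 173.9 kb of chromosome 11 (96194316 to 96368256), because Hoxb13 stands apart from Hoxb9, and Hoxc spans 115.8 kb of chromosome 15 (102921103 to 103036852). The deposited tables hold symbols without coordinates, and these positions come from GENCODE.

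Hox genes are known to resemble each other most in the homeobox, the stretch that encodes the DNA-binding homeodomain. Over the 39 homeoboxes, the 42 pairs of the same number were 67.2 to 93.9% identical (median 80.6%), and the 172 pairs within a cluster had a median of 61.7%. Despite this likeness the members share few identical runs. Of all stretches of 50 bases in its transcripts, a member shared at most 11.3% with another Hox gene (Hoxd4, with its neighbour Hoxd3), and 30 of the members shared none. Hoxc10 shared 6.40% and Hoxc5 3.92% with each other, through exon sequence annotated in both.

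In the MEF library 29 of the 39 genes were detected, meaning an FPKM of at least 1. The iPSC library held 14, the untreated V6.5 library 7, the NTC library 8, and the shGldc library 24. The summed FPKM of the 39 genes was 181.1 in MEFs, 42.0 in iPSCs, 26.6 in untreated V6.5 cells, 23.3 in NTC cells, and 157.2 in shGldc cells. The first 3 libraries come from a table made separately from that of NTC and shGldc, so levels across the tables are set side by side only. In these bulk samples, fewer expressing cells and less RNA per cell cannot be told apart.

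**Figure D1:**
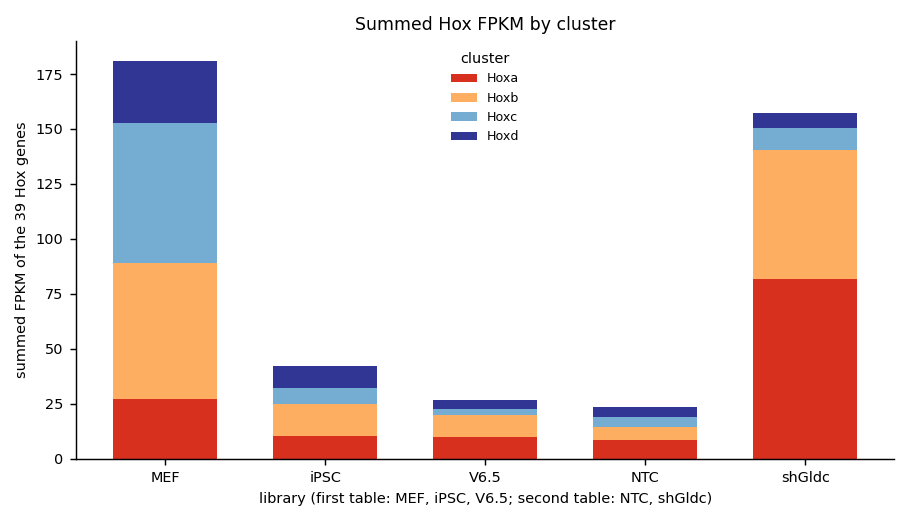
Summed FPKM of the 39 Hox genes in each library (bars from 0), split by cluster. The bars of MEF (181.1) and shGldc (157.2) are the tallest, with Hoxc the largest share in MEF (35.2%) and Hoxa the largest in shGldc (52.0%), where its lead over Hoxb rests on 1 member.

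The make-up of these sums differed. In shGldc cells Hoxa held 52.0% of the Hox sum, Hoxb 37.3%, Hoxc 6.20%, and Hoxd 4.45%. In MEFs Hoxc held 35.2%, Hoxb 34.3%, Hoxd 15.6%, and Hoxa 15.0%. The lead of Hoxa over Hoxb in shGldc cells rests on 1 member, without which Hoxb held the largest sum. Of the 39 genes, 23 had their highest level of all libraries in MEFs and 13 in shGldc cells.

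**Figure D2:**
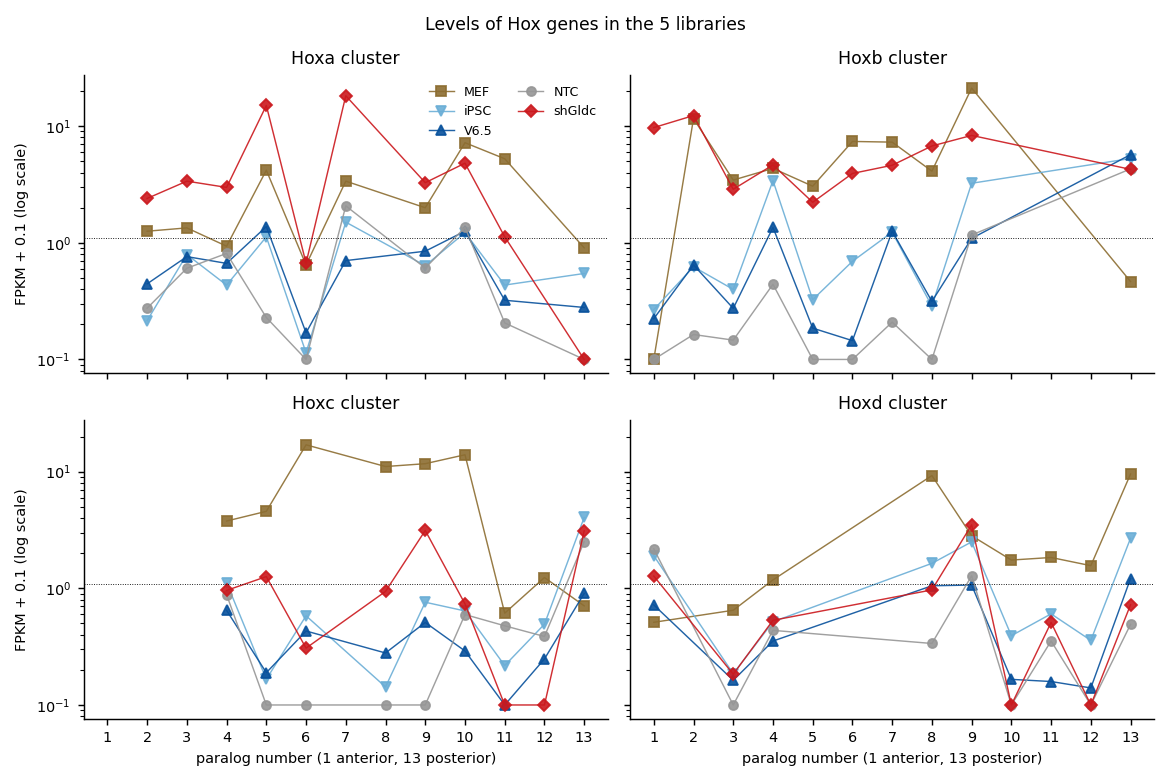
FPKM + 0.1 (log axis) of Hox genes (all but 1) by paralog number, in a panel per cluster, with a line per library; the dotted line is an FPKM of 1. In Hoxa and Hoxb the shGldc points lie above the NTC points at every plotted number under 13, whereas in Hoxc and Hoxd the MEF points stand highest from number 4 to 12, apart from Hoxd9.

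Depth, read from the step between low FPKM values of genes with a single transcript, came, in units of 1000000 fragments, to 24.6 for MEFs, 22.1 for iPSCs, and 24.7 for untreated V6.5 cells. For NTC and shGldc the step allowed 14.4 to 29.1. With the larger step, 3 fragments correspond to 0.0616 to 0.238 FPKM over the Hox genes in these libraries, and 16 members in NTC and 5 in shGldc were at or below that limit. Of these, 13 in NTC and 5 in shGldc were listed at 0, against 1 in untreated V6.5 cells. Over all genes, 9086 were listed at 0 in NTC, 9092 in shGldc, and 7324 in untreated V6.5 cells. Gldc itself stood at 74.7 FPKM in NTC and at 2.07 in shGldc. All 10 pluripotency markers (Pou5f1, Nanog, Sox2 and others) were detected in every library but MEFs. They summed to 4408 FPKM in NTC and 3845 in shGldc, beside 7098 in untreated V6.5 cells and 5815 in iPSCs.

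In shGldc against NTC, 32 of the 39 genes had the greater value in shGldc, 4 in NTC, and 3 were listed at 0 in both. Differences are given as log2(FPKM + 0.1), and a gene with at least 1 FPKM in either library counted as called when it differed at least 2-fold. Of the 24 members that reached 1 FPKM, 21 were higher in shGldc and 0 lower, whereas over all 11969 genes 8.97% were higher and 7.68% lower. Since that contrast chose the family, nothing is read from the gap. The members nearest the limit of 1 FPKM were Hoxa11 (1.03) and Hoxc5 (1.16) above it, and Hoxd8 (0.869) and Hoxc4 (0.860) below it.

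The Hoxa genes take part in patterning the hindbrain, limb, and reproductive tract. Hoxa10, with Hoxb13 of the Hoxb cluster, was among the 3 members detected in all of iPSCs, untreated V6.5 cells, and NTC.

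Hoxa5, which patterns the cervical and upper thoracic skeleton and the lung, reached 14.9 FPKM in shGldc, from 0.129 in NTC. It stood at 1.28 in untreated V6.5 cells, 1.02 in iPSCs, and 4.09 in MEFs, so NTC was the lowest library. The difference to NTC was 6.04 on the log2 scale, and to untreated V6.5 cells 3.45. Hoxa7, a thoracic gene, stood at 18.1 in shGldc and 1.97 in NTC. Its levels were 0.604 in untreated V6.5 cells, 1.40 in iPSCs, and 3.28 in MEFs.

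The other anterior Hoxa genes were lower. Hoxa2, the selector gene of the second pharyngeal arch, had 2.30 FPKM in shGldc, 0.175 in NTC, 0.345 in untreated V6.5 cells, 0.115 in iPSCs, and 1.16 in MEFs. Hoxa3, which the third pouch and its thymus need, had 3.28 in shGldc and 0.505 in NTC, and between 0.662 and 1.24 elsewhere. Hoxa4 had 2.88 in shGldc and 0.711 in NTC, and between 0.334 and 0.835 elsewhere. In each of these genes shGldc was the highest of all libraries. Hoxa6 had the same order at levels below 1 throughout (0.569 in shGldc, 0.546 in MEFs, listed at 0 in NTC).

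From Hoxa10 onwards the MEF library, in place of shGldc, held the highest level. Hoxa9, a gene of the lumbar region and of blood stem cells, had 3.18 FPKM in shGldc, 0.508 in NTC, and 1.90 in MEFs. Hoxa10, a gene of the lumbar vertebrae and uterus, had 4.71 in shGldc, 1.25 in NTC, 1.16 in untreated V6.5 cells, 1.12 in iPSCs, and 7.11 in MEFs, the highest Hoxa level there. Hoxa11, a gene of the forearm and kidney, had 1.03 in shGldc, 0.106 in NTC, 0.222 in untreated V6.5 cells, 0.334 in iPSCs, and 5.16 in MEFs. Hoxa13, the gene of the hand, foot, and hindgut, was listed at 0 in both NTC and shGldc and was at most 0.805 elsewhere. In all, 9 of the 11 Hoxa genes were called higher in shGldc, beside 8.97% of all genes, and the 2 exceptions stayed below 1 FPKM.

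In Hoxb, 9 of the 10 genes were called higher in shGldc, beside the same 8.97% of all genes. As the contrast chose the family, nothing is read from either count. Hoxb1, which specifies rhombomere 4 of the hindbrain and carries its own retinoic acid response elements, had 9.62 FPKM in shGldc and was listed at 0 in NTC and MEFs. It stood at 0.124 in untreated V6.5 cells and 0.167 in iPSCs, so the shGldc library was the only 1 to reach 1 FPKM. Hoxb8, a trunk gene also active in blood cell precursors, had 6.66 in shGldc, was listed at 0 in NTC, and had 0.214 in untreated V6.5 cells, 0.186 in iPSCs, and 4.01 in MEFs. Unlike Hoxb1, Hoxb8 was therefore a gene of both shGldc cells and MEFs.

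Promoters of Hoxb1 and Hoxb8, which were listed at 0 in NTC and expressed in shGldc, are shown beside that of Hoxd10, which was listed at 0 in both libraries. Each is the 250 bases before the RefSeq start on GRCm38.p6, read along the strand of the gene (plus in all): Hoxb1 at chr11:96365508-96365757, Hoxb8 at chr11:96281655-96281904, and Hoxd10 at chr2:74691641-74691890. Capitals mark matches, on either strand, to AGGTCA or AGTTCA (half-sites of retinoic acid receptors), TTTATG (Cdx factors), and TGATNNAT (Hox with Pbx).
Hoxb1: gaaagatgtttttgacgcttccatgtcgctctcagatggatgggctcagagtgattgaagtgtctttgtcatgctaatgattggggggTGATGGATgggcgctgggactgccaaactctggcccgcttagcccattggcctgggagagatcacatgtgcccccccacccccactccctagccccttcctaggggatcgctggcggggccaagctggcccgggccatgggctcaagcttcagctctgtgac
Hoxb8: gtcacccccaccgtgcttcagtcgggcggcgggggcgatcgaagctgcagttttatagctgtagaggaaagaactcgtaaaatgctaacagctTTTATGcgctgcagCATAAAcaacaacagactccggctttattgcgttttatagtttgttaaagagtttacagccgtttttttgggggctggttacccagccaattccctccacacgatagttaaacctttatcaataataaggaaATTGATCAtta
Hoxd10: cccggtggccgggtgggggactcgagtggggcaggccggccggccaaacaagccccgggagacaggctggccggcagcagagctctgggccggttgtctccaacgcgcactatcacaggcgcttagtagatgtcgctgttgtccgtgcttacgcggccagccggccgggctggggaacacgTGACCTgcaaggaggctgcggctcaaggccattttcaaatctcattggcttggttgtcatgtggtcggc
The Hoxb1 window holds a TGATNNAT match, the Hoxb8 window a TTTATG match on each strand and a TGATNNAT match, and the Hoxd10 window an AGGTCA match. RefSeq windows of 300 bases (250 before to 50 after the start) were matched for 22 Hox genes, 24 windows in all. AGGTCA was found in 29.2% of them and in 16.3% of all 32851 windows, AGTTCA in 8.33% and 14.0%, TTTATG in 20.8% and 11.9%, and TGATNNAT in 16.7% and 8.85%. Hox windows held a median of 14.5 CpG sites, against 7 for all windows. A match is a run of letters and no proof of binding, and no binding was measured.

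Hoxb2, a regulator of rhombomeres 3 and 4, was the highest Hoxb gene in shGldc cells, at 12.2 FPKM. NTC had 0.0636, untreated V6.5 cells 0.546, iPSCs 0.523, and MEFs 11.5, so the shGldc and MEF levels were alike. Hoxb3 and Hoxb5 had the same form: 2.78 in shGldc, 0.0464 in NTC, and 3.35 in MEFs for Hoxb3, and 2.12 in shGldc, listed at 0 in NTC, and 2.96 in MEFs for Hoxb5. In untreated V6.5 cells and iPSCs Hoxb3 had 0.174 and 0.299, and Hoxb5 0.0855 and 0.226.

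Hoxb4, known for expanding blood stem cells, had 4.55 FPKM in shGldc, 0.341 in NTC, 1.26 in untreated V6.5 cells, 3.31 in iPSCs, and 4.24 in MEFs. The iPSC line thus stood close to MEFs and shGldc cells. Hoxb7 had 4.52 in shGldc, 0.109 in NTC, 1.16 in untreated V6.5 cells, 1.13 in iPSCs, and 7.20 in MEFs. Hoxb6 had 3.83 in shGldc, was listed at 0 in NTC, and had 0.0449 in untreated V6.5 cells, 0.594 in iPSCs, and 7.30 in MEFs. For Hoxb6 and Hoxb7, MEFs held the higher level, whereas Hoxb4 was slightly higher in shGldc than in MEFs.

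Hoxb9, a thoracic gene and the highest Hox gene of MEFs at 21.1 FPKM, had 8.23 in shGldc, 1.07 in NTC, 0.991 in untreated V6.5 cells, and 3.14 in iPSCs. Hoxb13, the gene of the tail bud and prostate, behaved unlike every other Hoxb gene. It had 4.16 in shGldc, 4.20 in NTC, 5.60 in untreated V6.5 cells, 5.18 in iPSCs, and 0.365 in MEFs, so that it was the highest Hox gene of each of the NTC, untreated V6.5, and iPSC libraries. Hoxb13 lies beyond Gm53 and Mir196a-1, at the far posterior end of the cluster.

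In Hoxc and Hoxd few genes reached 1 FPKM in shGldc. Hoxc9, a thoracic gene, had 3.03 in shGldc, was listed at 0 in NTC, and had 0.410 in untreated V6.5 cells, 0.660 in iPSCs, and 11.6 in MEFs. Hoxc5 had 1.16 in shGldc, was listed at 0 in NTC, and had 0.0891 in untreated V6.5 cells, 0.0663 in iPSCs, and 4.47 in MEFs. In both, shGldc was above the pluripotent libraries and below MEFs. Hoxc13, a hair and nail gene, was highest in iPSCs and low in both untreated V6.5 cells and MEFs: 3.01 in shGldc, 2.41 in NTC, 0.804 in untreated V6.5 cells, 3.95 in iPSCs, and 0.608 in MEFs.

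Other Hoxc genes detected in MEFs stayed below 1 FPKM in shGldc cells. Hoxc6, the highest Hoxc gene of MEFs at 16.9 FPKM, had 0.207 in shGldc, was listed at 0 in NTC, and had 0.331 in untreated V6.5 cells and 0.481 in iPSCs. Hoxc8, a gene of the lower thoracic spinal cord, had 10.97 in MEFs, 0.841 in shGldc, and at most 0.179 in the other libraries. Hoxc10, a gene of the lumbar cord and hindlimb, had 13.9 in MEFs, 0.636 in shGldc, 0.496 in NTC, 0.190 in untreated V6.5 cells, and 0.540 in iPSCs. Hoxc4 had 3.68 in MEFs, 0.860 in shGldc, 0.783 in NTC, 0.547 in untreated V6.5 cells, and 1.02 in iPSCs. Hoxc11 and Hoxc12 were listed at 0 in shGldc, with 0.377 and 0.287 in NTC and 0.512 and 1.14 in MEFs, so the NTC values were the greater in this pair.

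In Hoxd, Hoxd9 was the gene called higher in shGldc, with 3.40 FPKM, against 1.18 in NTC, 0.967 in untreated V6.5 cells, 2.40 in iPSCs, and 2.72 in MEFs. Hoxd1 ran against its paralog Hoxb1: 1.17 in shGldc, 2.08 in NTC, 0.621 in untreated V6.5 cells, 1.80 in iPSCs, and 0.411 in MEFs. Hoxd8 had 0.869 in shGldc, 0.237 in NTC, 0.952 in untreated V6.5 cells, 1.54 in iPSCs, and 9.16 in MEFs. Hoxd13, the gene of the digits, had 9.46 in MEFs, 2.59 in iPSCs, 1.11 in untreated V6.5 cells, 0.624 in shGldc, and 0.391 in NTC. The remaining Hoxd genes (Hoxd3, Hoxd4, Hoxd10, Hoxd11, and Hoxd12) were below 0.5 FPKM in both shGldc and NTC and at 0.549 to 1.74 in MEFs.

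By paralog number, 7 of the 8 members of numbers 1 to 3 reached 1 FPKM and 6 of these were called higher. Of numbers 4 to 8, 9 of 15 reached it and all 9 were called higher. Of numbers 9 to 13, 8 of 16 reached it and 6 were called higher, beside 8.97% of all genes. In NTC 8 of the 39 members reached 1 FPKM, and 1 of numbers 4 to 8, so most passed through shGldc alone. The filter thus favoured a call of higher, and nothing is read from these counts. The median difference over all members, with no filter, was 2.48 in Hoxa, 4.47 in Hoxb, 0.31 in Hoxc, and 0.53 in Hoxd on the log2 scale, beside a median of 0.04 for all genes that reached 1 FPKM. With no filter it was 3.16 for numbers 1 to 3, 3.23 for numbers 4 to 8, and 0.42 for numbers 9 to 13. For the 24 members that reached 1 FPKM the median was 3.16, with 2.48 in Hoxa, 4.47 in Hoxb, 3.66 in Hoxc, and 0.34 in Hoxd. For these it was 3.19 for numbers 1 to 3, 4.47 for numbers 4 to 8, and 2.13 for numbers 9 to 13.

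**Figure D3:**
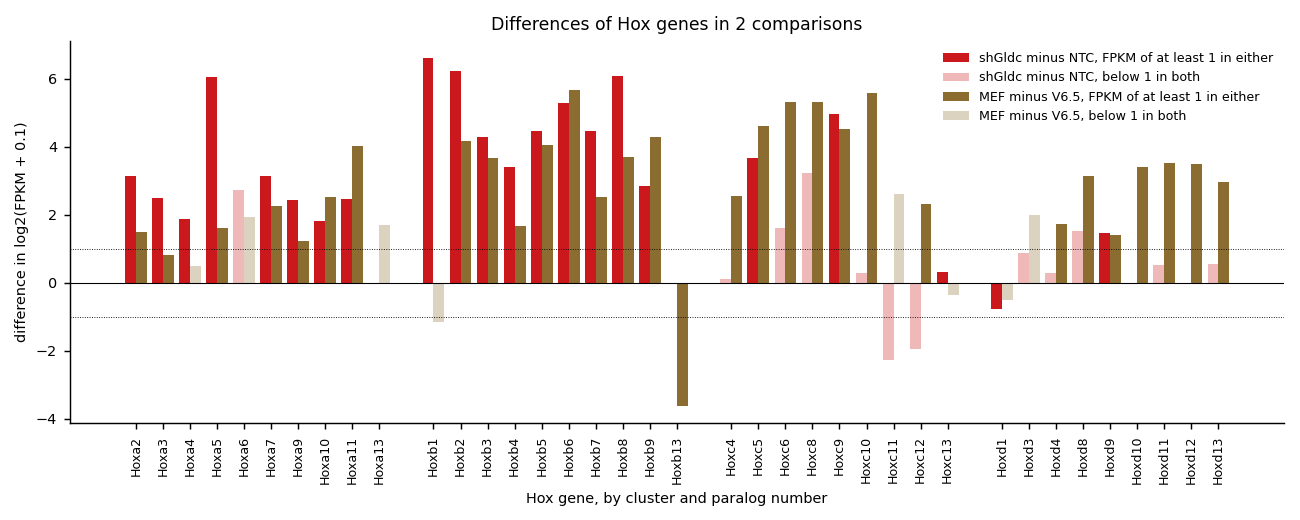
Difference in log2(FPKM + 0.1) of Hox genes (all but 1) for shGldc minus NTC (red) and MEF minus V6.5 (brown), by cluster and paralog number; pale bars are genes below 1 FPKM in both libraries and dotted lines mark 2-fold. Hoxb13 has a solid brown bar below -1, and in Hoxc and Hoxd the solid red bars are those of Hoxc5, Hoxc9, Hoxc13, Hoxd1, and Hoxd9.

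MEFs against untreated V6.5 cells asked how the family differs between a somatic and a pluripotent cell, in a contrast the choice of the family did not use. Of 31 members that reached 1 FPKM in either library, 28 were higher in MEFs and 2 lower, whereas over 12840 genes 23.3% were higher and 30.3% lower. Over all 39 members, 34 had the greater value in MEFs and 5 in V6.5 cells. The median difference of the 31 members was 3.14 on the log2 scale, beside -0.25 for all genes kept. It was 1.55 in Hoxa, 3.71 in Hoxb, 4.60 in Hoxc, and 3.14 in Hoxd, and 1.499, 3.14, and 3.40 for numbers 1 to 3, 4 to 8, and 9 to 13. Among the 10 largest differences, those of Hoxc were 5.59 for Hoxc10, 5.31 for Hoxc8, 5.30 for Hoxc6, 4.60 for Hoxc5, and 4.52 for Hoxc9 on the log2 scale. From Hoxb came Hoxb6 (5.67, the largest of all members), Hoxb9 (4.28), Hoxb2 (4.17), and Hoxb5 (4.04), and from Hoxa Hoxa11 (4.03). The lower members included Hoxb13 (-3.62). The body region from which the MEFs came is not given in the labels.

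The genes detected in shGldc cells and in MEFs were set side by side. Of the 24 genes detected in shGldc cells, 18 were also detected in MEFs, which is 75.0% of the shGldc list and 62.1% of the 29 of MEFs. MEFs detected 74.4% of all 39 members, so the share of the shGldc list is near that of the whole family. Those detected in shGldc cells and not in MEFs included Hoxa4, Hoxb1, Hoxb13, Hoxc13, and Hoxd1. Those detected in MEFs and not in shGldc cells were all from Hoxc and Hoxd: Hoxc4, Hoxc6, Hoxc8, Hoxc10, Hoxc12, Hoxd4, Hoxd8, and Hoxd10 to Hoxd13. As a sum, 10 fibroblast markers were not higher in shGldc cells than in NTC. The 10 markers summed to 7281 FPKM in MEFs, 12.2 in NTC, and 5.36 in shGldc, and Col3a1, Postn, Dcn, Lum, and Prrx1 were listed at 0 in both NTC and shGldc. Untreated V6.5 cells had 53.1, with Col1a1 at 20.5 FPKM. Over a wider list of 18 fibroblast genes the sums were 174.9 in NTC, 142.6 in shGldc, and 137.8 in untreated V6.5 cells. Of these, Vim alone held 153.9, 129.0, and 70.2 FPKM, so the order of the pluripotent libraries depends on the list and on that gene. In the wider list Pdgfra was called higher in shGldc than in NTC (1.36 against 0.143) and 3 genes lower.

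In iPSCs against untreated V6.5 cells, of 14 members that reached 1 FPKM in iPSCs or V6.5 cells, 7 were at least 2-fold higher in iPSCs and 0 lower, beside 10.1% higher and 7.44% lower among 12323 genes. The count of 7 depends on the settings: it was 2 with a pseudocount of 1, 13 with no filter, and 0 at 5 FPKM or more, where 1 member was left. The 7 were Hoxc13 (2.16 on the log2 scale), Hoxb9 (1.57), Hoxd1 (1.40), Hoxb4 (1.33), Hoxd9 (1.23), Hoxd13 (1.15), and Hoxa7 (1.10). The median of the 14 was 0.94 (0.04 in Hoxa, 0.65 in Hoxb, 1.47 in Hoxc, and 1.19 in Hoxd), beside 0.04 for all genes kept. By number it was 0.76 for 1 to 3, 0.71 for 4 to 8, and 1.19 for 9 to 13. Hoxc4 (0.78) and Hoxd8 (0.64) stayed within 2-fold, as did Hoxa5 (-0.29). Hoxc13 had 3.95 FPKM in iPSCs. This comparison shares its V6.5 library with that of MEFs.

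Untreated V6.5 cells were then set in place of NTC, across the tables. Of 25 members that reached 1 FPKM, 22 were higher in shGldc and 0 lower, where 9.89% of 12237 genes were higher and 13.9% lower. These calls cross the separately made tables, and the shGldc values are those that chose the family. Nothing is therefore read from that gap either. Of the 39 genes, 26 (66.7%) were lower in NTC than in untreated V6.5 cells and 13 were higher, while among all genes with unequal values 58.5% were lower in NTC. The difference of Hoxb4, above 3 fragments in each of these libraries, was 3.40 against NTC and 1.78 against V6.5 cells. Hoxa7 went the other way, with 3.14 and 4.70.

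Other genes that lie among the Hox genes were examined next. Of the 15 such genes in the tables, 5 reached 1 FPKM in shGldc or NTC, and 4 of these were at least 2-fold higher in shGldc, beside 8.97% of all genes. Hotairm1, a long noncoding RNA from the anterior end of Hoxa, had 14.03 FPKM in shGldc, 4.47 in NTC, 4.15 in untreated V6.5 cells, 3.17 in iPSCs, and 5.41 in MEFs. Hoxaas3, antisense to Hoxa3 and Hoxa7, had 3.80 in shGldc, was listed at 0 in NTC, and was at most 0.106 elsewhere. Hoxb5os, antisense to Hoxb5, had 10.9 in shGldc, 0.0592 in NTC, and 2.09 in MEFs, and was listed at 0 in untreated V6.5 cells and iPSCs. Gm53, between Hoxb9 and Hoxb13, stayed within 2-fold (10.3 in shGldc and 5.55 in NTC).

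The entry Mir196a-1, between Hoxb9 and Gm53, had 18.2 FPKM in shGldc, 2.17 in NTC, 5.27 in untreated V6.5 cells, 4.33 in iPSCs, and 1.56 in MEFs. The entry is short (96265164 to 96265265), so at the depth given above its NTC value rests on few fragments. Such libraries read longer RNA across the hairpin, and mature miRNA was not measured. The miRNA of this locus is known to act on Hox transcripts, and its sequence is shown with its match in Hoxb8, the textbook target. The mature miRNA lies at chr11:96265187-96265208 on the plus strand, and capitals mark its seed (bases 2 to 8). The match lies at chr11:96284888-96284909 in the last exon of Hoxb8, in its 3′ UTR 418 bases past the stop codon, and capitals mark the bases opposite the seed.
mmu-miR-196a-5p: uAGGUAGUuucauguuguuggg
Hoxb8 site: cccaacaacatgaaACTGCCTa
Of the 22 positions, 21 form Watson-Crick pairs and 1 a G with U pair. The Hoxb8 transcript and the Mir196a-1 entry were both higher in shGldc than in NTC.

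The genes beside the clusters differed about as often as all genes. Of the 24 protein-coding genes nearest to the clusters, 3 on each side, 22 reached 1 FPKM in NTC or shGldc, of which 2 were higher in shGldc and 1 lower, beside 8.97% and 7.68% of all genes. Evx1, a homeobox gene beyond Hoxa13, had 1.90 in shGldc, 0.278 in NTC, and at most 0.173 elsewhere. Calcoco2, a selective autophagy receptor gene beyond Hoxb13, had 306.2 in shGldc, 85.9 in NTC, 47.6 in untreated V6.5 cells, and 41.9 in iPSCs, and was listed at 0 in MEFs. Hnrnpa3, an RNA-binding protein gene anterior to Hoxd, had 1.87 in shGldc and 5.67 in NTC. Skap2, the first gene anterior to Hoxa, had 38.5 in shGldc and 23.5 in NTC, and Mtx2, the first anterior to Hoxd, 27.9 and 25.5.

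**Figure D4:**
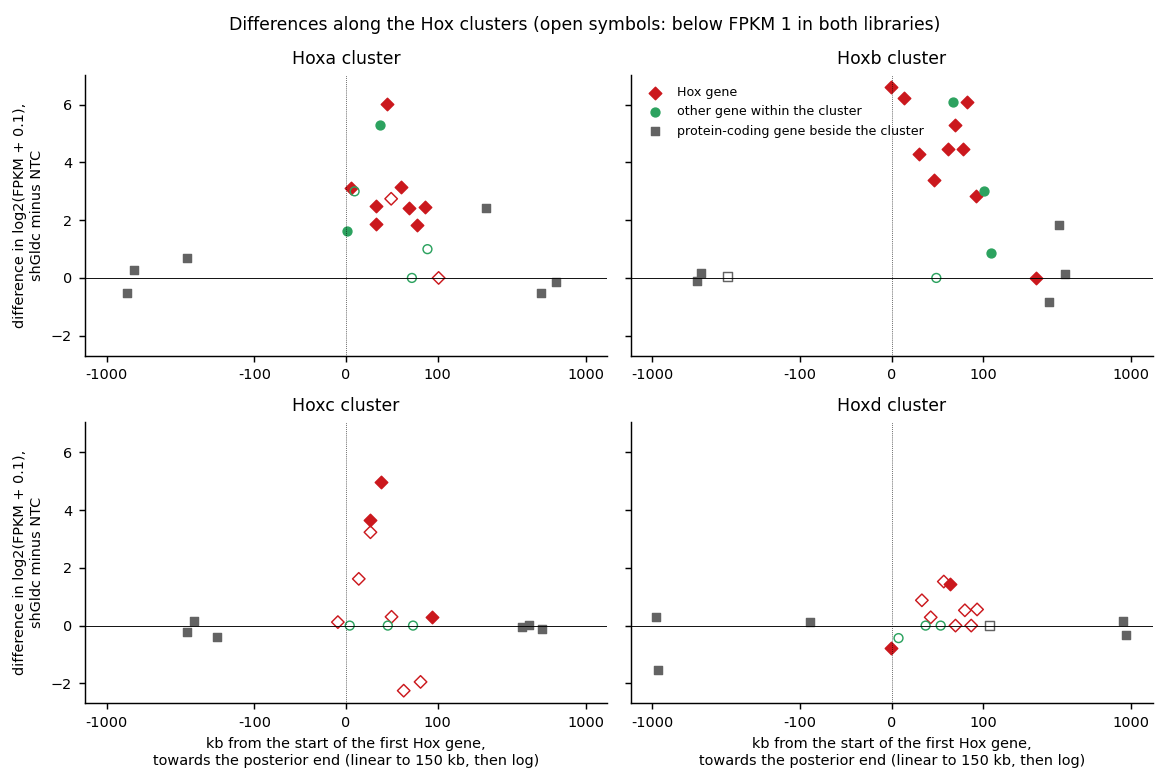
Difference in log2(FPKM + 0.1), shGldc minus NTC, against distance from the annotated start of the first Hox gene towards the posterior end (linear to 150 kb, then log), for Hox genes (all but 1), other genes within the clusters, and protein-coding genes beside them; open symbols are below 1 FPKM in both libraries. The plotted Hox genes of Hoxa and Hoxb lie above 0 at every number under 13, while Mir196b and Mir10a within these clusters lie at 0. The genes beside all clusters lie within 2-fold, apart from Evx1 (2.41), Calcoco2 (1.83), and Hnrnpa3 (-1.55).

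Of the 39 members, 16 have exons that overlap those of another gene, 10 of them with a gene on the opposite strand. The library kit does not mark strand, so reads of a gene and its antisense partner cannot be told apart. Of the stretches of 50 bases, Hoxaas3 shares 18.7% of those of Hoxa7, and Hoxb3os 51.4% of those of Hoxb3 and 25.9% of those of Hoxb2. Among the 23 members with no such overlap, which include Hoxa5, Hoxb1, Hoxb6, Hoxb8, and Hoxc9, 13 reached 1 FPKM, of which 10 were called higher in shGldc and 0 lower, beside 8.97% and 7.68% of all genes.

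Genes known to act on the Hox clusters were taken from lists, whose counts stand beside 8.97% higher and 7.68% lower among all genes. Of 14 retinoic acid genes that reached 1 FPKM, 8 were higher in shGldc and 2 lower. Cyp26a1, the enzyme that degrades retinoic acid and a direct target of its receptors, had 25.7 FPKM in shGldc, 0.732 in NTC, 0.631 in untreated V6.5 cells, 6.24 in iPSCs, and 0.0228 in MEFs. Stra8, named for its stimulation by retinoic acid, had 224.1 in shGldc, 22.6 in NTC, 52.5 in untreated V6.5 cells, and 155.5 in iPSCs. Dhrs3, Stra6, and Rarb, further known targets, had 7.64, 10.8, and 1.09 in shGldc, against 0.214, 0.549, and 0.0972 in NTC. Crabp1, a retinoic acid binding protein, had the most negative difference of the list, at 17.7 in shGldc and 71.3 in NTC. Aldh1a2, the embryo's main enzyme of retinoic acid synthesis, was also lower, at 1.15 and 3.60, while the receptors Rara and Rarg stayed within 2-fold.

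Of 10 caudal, Evx, and posterior signal genes that reached 1 FPKM, 6 were higher and 1 lower. Cdx2 had 33.3 FPKM in shGldc, 5.41 in NTC, 0.274 in untreated V6.5 cells, and 3.34 in iPSCs. Cdx1 had 328.1 in shGldc, 156.8 in NTC, 12.1 in untreated V6.5 cells, and 29.8 in iPSCs, so that NTC already stood above the untreated line. Cdx4 went from 0.179 in NTC to 1.77. Wnt8a, a ligand of the early posterior embryo, had the largest difference, from 0.883 to 14.6, and Gbx2 the most negative, from 50.6 to 25.1. T, the mesoderm factor brachyury, stayed within 2-fold (4.33 in NTC and 5.08 in shGldc).

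Of 9 TALE cofactors, which bind DNA together with Hox proteins, 8 reached 1 FPKM and 3 were higher: Meis1 (0.250 in NTC and 1.82 in shGldc), Meis2 (0.984 and 4.42), and Pbx3 (2.104 and 4.39). Meis3 had the most negative difference of them, at 2.62 and 1.53. Of 30 Polycomb genes, 29 reached 1 FPKM, with 2 higher (Bmi1, from 0.526 to 1.69, and Cbx8, from 3.57 to 7.39) and 1 lower (Phf19, from 3.67 to 1.11), shares near those of all genes. The core subunits Ezh2 (41.2 in NTC and 35.2 in shGldc), Eed (47.2 and 35.2), and Suz12 (19.7 and 25.4) stayed within 2-fold. None of the 13 trithorax genes, which oppose Polycomb, passed 2-fold, with the largest difference in Setd1b (2.79 in NTC and 4.47 in shGldc) and the most negative in Kmt2c (2.48 and 1.90).

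Markers of cell types that express Hox genes were examined as well. Of 20 hindbrain and early neural genes, 7 reached 1 FPKM, with Neurog1 higher (0.684 in NTC and 3.35 in shGldc) and En2 lower (4.49 and 2.16). Of 16 endoderm and mesoderm genes, 5 reached it and 3 were higher, Gata6 most (0.462 and 8.22), while Mixl1 had the lowest difference (1.36 and 1.23). Of 18 fibroblast genes, 8 reached it, with Pdgfra, which is also a marker of primitive endoderm, higher (0.143 and 1.36) and 3 lower, Col1a1 most (1.24 and 0.125). Whether the levels of these lists had a part in the Hox levels was not tested.

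**Figure D5:**
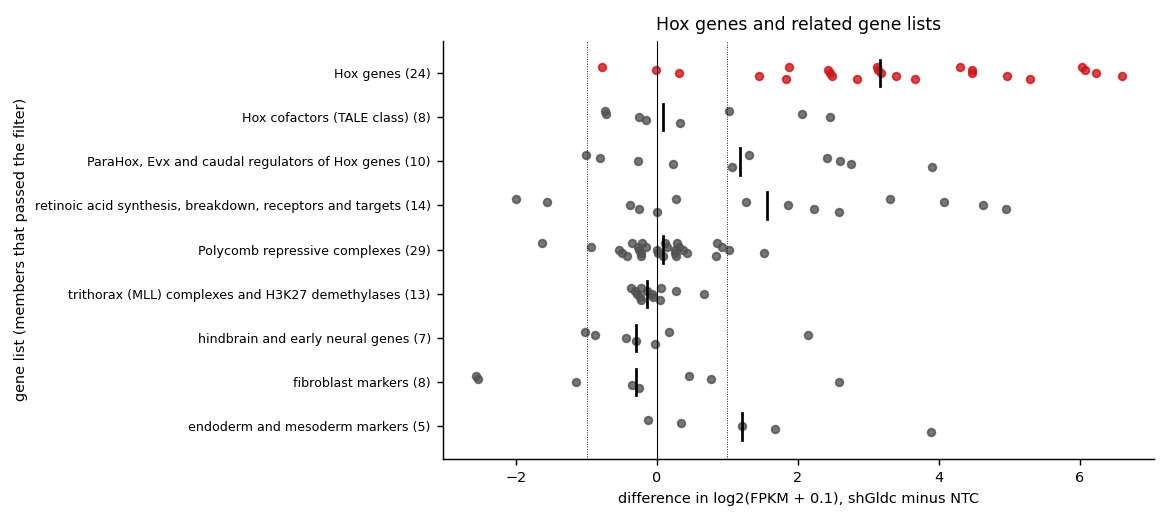
Difference in log2(FPKM + 0.1), shGldc minus NTC, of the Hox genes (red) and of the members of each list (grey) that reached 1 FPKM in either library, with their number in brackets; black bars are medians and dotted lines mark 2-fold. The Hox median lies at 3.16, the retinoic acid median at 1.56, the caudal and posterior median at 1.18, and the Polycomb median at 0.09.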

How the data were processed

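Total RNA of 5 samples was extracted with TRIzol and sequenced on the Illumina HiSeq after NEBNext Ultra library preparation, a kit that does not mark strand. Per the labels and the methods, the authors mapped reads with TopHat2 2.1.0 to mm10 (mm9 is also named, without a role), assembled transcripts with StringTie 1.3.4d, and computed FPKM values with Ballgown. SAMtools 1.7 is also named. The annotation and filters are not given in the sources used here. The authors deposited FPKM in 2 tables of 24421 genes, the first with 3 libraries and the second with 2. The shGldc column is headed with a number that the labels do not explain.

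The members, lists, and comparisons were chosen with earlier results of these data known. Genes that reached 1 FPKM in either library of a comparison were kept, differences were taken as log2(FPKM + 0.1), which understates the change of low genes, and at least 2-fold was called. With 1 library per group no test was run. All 39 members entered the counts, sums, and medians, and 1 is not reported or drawn singly here. By rule, members were given singly where they ranked among the 10 largest differences of a comparison, led a cluster in MEFs or shGldc, or reached 1 FPKM in iPSCs, V6.5, or NTC. Members outside this rule, such as Hoxa2, Hoxa3, Hoxa4, Hoxa6, and Hoxa9, were given singly to complete their clusters, after their values were seen. Of each list the highest and lowest members in shGldc against NTC were named; other list genes were named for their known roles after their values were seen. Depth was estimated from steps between low FPKM values times length over 5723 genes with a single GENCODE transcript, and a floor of 3 fragments covers counting error only. The call counts and the step search were tested on simulated data. Positions come from GENCODE M21 and sequences from GENCODE (transcripts) and RefSeq (promoters and miRNA) on GRCm38. The homeobox was placed by a conserved motif of its recognition helix. Python 3.11, pandas, and matplotlib were used. Alternatives were other pseudocounts, filters, scalings, and the untreated V6.5 control. Raising low values to the floor and leaving out members with overlapping exons were added after seeing the data.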

Additional observations from a re-analysis of the deposited data

How the results depend on the processing

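Of 252 recomputed counts and medians, 178 kept within 1.5 times (counts) or within 0.59 on the log2 scale (medians), the robust SD of NTC minus untreated V6.5 over 12048 genes. The count of 21 members higher in shGldc than in NTC kept within 1.5 times under both other pseudocounts, both scalings, no filter, the untreated V6.5 control, and the floor of 3 fragments. The shGldc values that chose the family enter each of these settings, so the steadiness is a description. No paired analysis was possible because each group holds 1 library. Depth limits the members listed at 0 and those below 1 FPKM. The cause of the shifts given here was not tested, other than fewer members passing a stricter filter.

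With a pseudocount of 1, the medians of shGldc against NTC were 1.75 (all), 1.49 (Hoxa), 2.22 (Hoxb), 1.11 (Hoxc), and 1.85, 2.27, and 1.18 for numbers 1 to 3, 4 to 8, and 9 to 13. Those of MEFs against V6.5 were 1.87 (all), 0.95 (Hoxa), 1.93 (Hoxb), 3.16 (Hoxc), 1.31 (Hoxd), and 0.68, 1.93, and 1.37 by number, and 2 members were higher in iPSCs than in V6.5. With a pseudocount of 0.01, shGldc against NTC had medians of 3.16 (Hoxa), 6.502 (Hoxb), 6.87 (Hoxc), and 6.75 (numbers 4 to 8), and MEFs against V6.5 of 5.50 (Hoxc) and 4.40 (numbers 9 to 13).

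With no filter, 2 members were lower in shGldc (Hoxc11 and Hoxc12), and the medians were 2.43 (all), 0.31 (Hoxc), 3.23 (numbers 4 to 8), and 0.42 (numbers 9 to 13). In MEFs against V6.5 they were 2.54 (all), 2.54 (numbers 4 to 8), and 2.80 (numbers 9 to 13). In iPSCs against V6.5, 13 members were higher and 1 lower, with medians of 0.78 (Hoxc) and 0.15 (numbers 1 to 3).

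At 5 FPKM or more, 12 members were detected in MEFs, 1 in iPSCs, 1 in untreated V6.5 cells, 0 in NTC, and 7 in shGldc, and at 0.5 or more 18 in untreated V6.5 cells. With that filter of 5, 7 members were higher in shGldc than in NTC, with medians of 6.04 (all), 3.19 (Hoxa), 6.16 (Hoxb), 6.24 (numbers 1 to 3), 6.04 (numbers 4 to 8), and 2.84 (numbers 9 to 13). In MEFs against V6.5, 12 were higher and 1 lower, with medians of 4.17 (all), 3.27 (Hoxa), 5.31 (Hoxc), and 4.17, 5.30, and 4.03 by number. In iPSCs against V6.5, 0 were higher, and the median of all, of Hoxb, and of numbers 9 to 13 was -0.11, the last with its sign reversed, since it rests on 1 gene, Hoxb13.

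Taking untreated V6.5 in place of NTC, the medians were 2.43 (all), 3.49 (Hoxb), 2.62 (Hoxc), and 3.45 (numbers 4 to 8). With each library rescaled, the median of Hoxc in iPSCs against V6.5 was 2.099. Chosen after seeing the data, values raised to 3 fragments gave medians of 2.88 (Hoxc) and 3.67 (numbers 4 to 8) in shGldc against NTC. Without the 16 members with overlapping exons, 10 members were higher in shGldc, with medians of 3.93 (Hoxa), 2.64 (Hoxc), and 5.30 (numbers 4 to 8). In MEFs against V6.5, 16 were then higher and 1 lower, with a median of 2.75 for numbers 9 to 13, and in iPSCs against V6.5 the median of numbers 1 to 3 was 1.40.

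For the 10 largest differences of each comparison, 110 of 160 recomputed values moved by less than 0.59 and 50 by more, and 0 changed sign past 2-fold. Differences of other single genes were not recomputed. Of the 50, 22 came with a pseudocount of 1, 13 with 0.01, 9 with the V6.5 control, and 6 with the floor.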
